A study of Mus musculus with 6 samples.

Results

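DNA repair genes were followed in C2C12 cells, a mouse myoblast line, with and without overexpressed ChREBP-beta, the short form of a transcription factor that responds to glucose. The members were chosen by symbol from the deposited gene table: the Fanconi genes Fanca to Fancm with a 1-letter ending, symbols that begin with Rad50 to Rad54, named genes of the Xrcc, Ercc, Msh, Mlh and Parp series, and 17 further repair and checkpoint genes such as Brca1, Atm and Trp53. This gave 60 of the 22272 symbols, and 58 of them had enough counts to be tested. The rule reads symbols only. Rad51ap2 had no count in any library and Msh4, a meiotic mismatch repair gene, had 6 counts over the 6 libraries, so neither was tested.

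The series sequenced RNA from undifferentiated C2C12 cells at day 0. The 3 control libraries came from cells labelled as wild type with green fluorescent protein (GFP), and the 3 others from cells labelled as overexpressing ChREBP-beta. The labels do not say how the cells were made to overexpress it, whether the line was a clone, or whether replicates were separate cultures, so the spread behind each p-value may be only technical. Mlxipl, the gene that encodes ChREBP, was read at 0.576, 0.719 and 0.501 CPM (counts divided by the library total, scaled by TMM) in the GFP libraries and at 222, 215 and 219.99 CPM in those of ChREBP-beta, so all 6 libraries matched their labels. Each library held between 17600238 and 19163834 counts. All 6 myoblast markers tested were lower in ChREBP-beta cells, and their sum went from between 342 and 374 CPM to between 119 and 126 CPM. Most of that sum is Des, the muscle intermediate filament gene. Myod1, the myoblast master regulator, went from 30.9, 31.9 and 29.5 CPM to 0.925, 1.59 and 1.16 CPM, Cdh15, a myoblast cadherin, from 14.8, 16.1 and 16.7 CPM to 0.925, 0.850 and 1.04 CPM, and Pax7, a satellite cell factor, from 2.15, 2.60 and 2.84 CPM to 0, 0 and 0.347 CPM. The 6 fibroblast and fibro-adipogenic markers summed to between 827 and 861 CPM in GFP cells and to between 875 and 899.7 CPM in ChREBP-beta cells, mostly Cd34 and Ly6a. They moved both ways, with Pdgfra, Ly6a, Dpt and Pi16 called higher and Cd34 and Dcn lower. GFP replicate 1 had lower sums of lung and blood markers, which are foreign to the culture, than the other 5 libraries. Lung markers summed to 0.523 CPM there and to between 67.9 and 133 CPM elsewhere. Blood markers summed to 7.17 CPM there, against 18.3 to 23.3 CPM. Only Lyz2 and Hbb-bs made that blood sum low. Hba-a1 lay within the range of the other libraries, and Cd79a and Cd3e, at low levels, were highest in GFP replicate 1. Ptprc, also at a low level, was higher only in ChREBP-beta replicate 3. Liver markers summed to under 1 CPM in GFP replicates 1 and 2 and to between 14.96 and 23.9 CPM in the other 4 libraries. The part of these markers in the results was not tested, and results that change without a library are given below with their values.

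Cells repair DNA by routes that match the kind of damage. Damaged bases are cut out and replaced in base excision repair, bulky lesions in nucleotide excision repair, and copying errors in mismatch repair. Broken chromosomes are rejoined directly by end joining or copied from the sister chromatid by homologous recombination, while the Fanconi anaemia proteins unhook strands that are linked to each other. The kinases ATM and ATR sense breaks and stalled replication and signal to CHK1, CHK2 and p53. Myoblasts are dividing muscle precursors, which leave the cell cycle when they differentiate.

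The DNA repair genes moved little compared with the rest of the transcriptome, with a few exceptions in named complexes. Of the 58 tested, 16 were higher and 9 lower with ChREBP-beta and 33 were not called (edgeR, quasi-likelihood, with p adjusted over all genes and called under 0.05). That is 43.1% called, where 58.7% of all 12166 genes tested were called (29.5% higher and 29.3% lower). At least 1.5-fold changes were called for 4 members, Xrcc5 and Prkdc lower and Ercc6 and Ercc8 higher, or 6.90%, against a background of 19.8% (7.46% higher and 12.4% lower). The median size of the log2 fold change, without its sign, was 0.17 among the members and 0.23 among all genes tested. Among the 9482 genes tested whose mean CPM lay within the members' range of 1.46 to 122, 57.6% were called, 19.4% at 1.5-fold or more, and the median size was 0.23. With the sign kept, the median was 0.05 for the members and 0.00 for all genes tested. Libraries of the groups did not overlap for 28 of the 58 members, where this held for 63.2% of all genes tested. In bulk RNA, fewer cells that express a gene and less RNA per cell cannot be told apart.

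**Figure D1:**
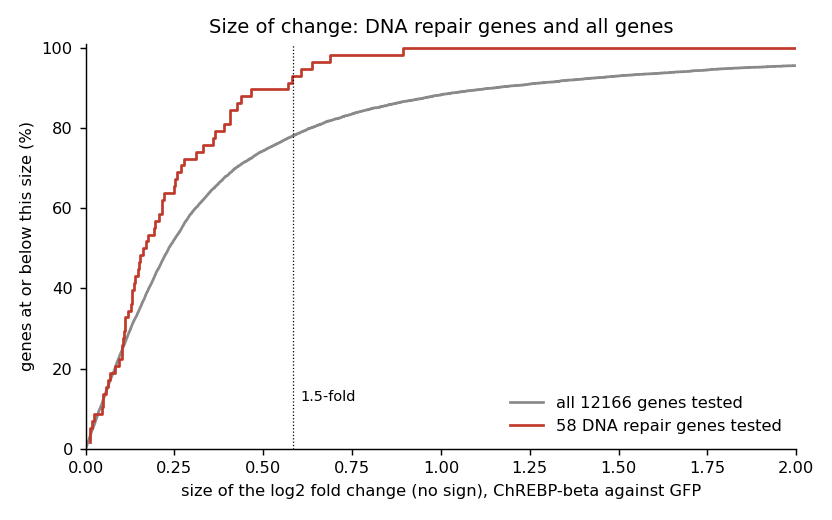
Cumulative share of genes (percent, vertical axis) at or below each size of log2 fold change without sign (horizontal axis, ChREBP-beta against GFP), for the 58 DNA repair genes tested and all 12166 genes tested. The repair genes' curve lies above that of all genes from about the members' median size of 0.17 onwards, and 4 members lie beyond the dotted 1.5-fold line as called genes.

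The balance of higher to lower calls depended on how libraries were scaled, among the members and among all genes tested. By TMM, the scaling used here, 16 members were higher and 9 lower. The split was 12 to 13 with upper-quartile scaling and 11 to 13 with library size alone. Over all genes tested, 3584 were higher and 3561 lower by TMM. Upper-quartile scaling gave 3166 and 4005, and library size alone 2989 and 4166. These 2 scalings shifted the members' log2 fold changes by a median of -0.03 and -0.05. The median log2 fold change of all genes tested was -0.04 and -0.05 with them, against 0.00 by TMM. Xrcc5, Prkdc, Ercc6, Ercc8, Atm, Trp53, Mre11a, Parp3 and Mlh3 kept their call and direction in all 16 alternatives tried. The estimates for members that were not called were mostly narrow: for 31 of those 33 the fold change ± 2 SE stayed within 1.5-fold in either direction, and the exceptions were Rad51b and Msh5, which had few counts.

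**Figure D2:**
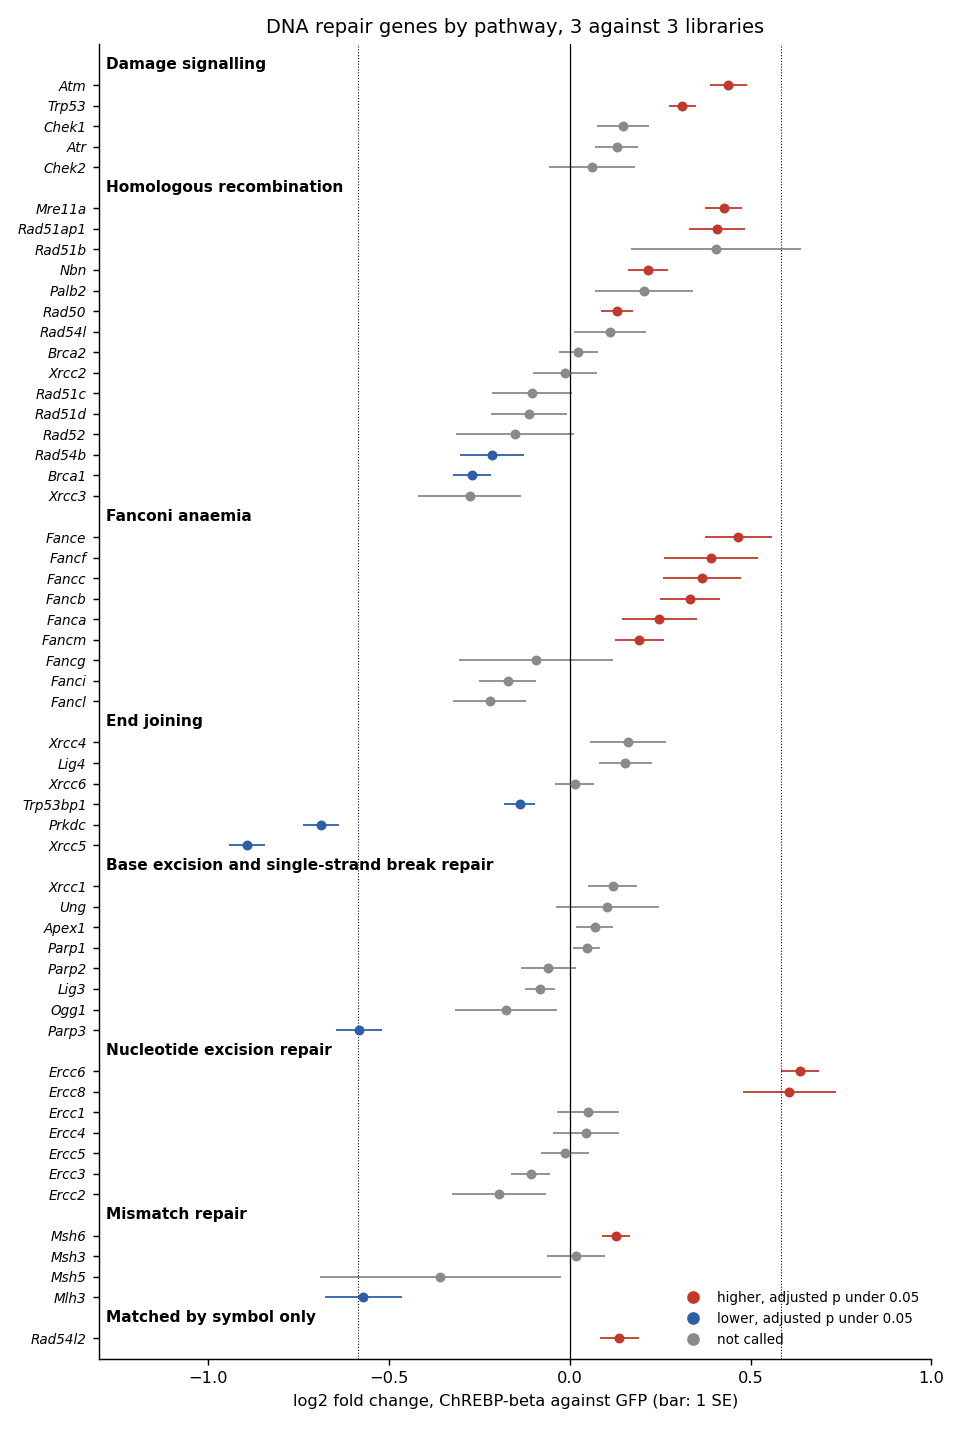
Log2 fold change (horizontal axis, ChREBP-beta against GFP; bars are 1 SE, 3 against 3 libraries) of 55 of the 58 DNA repair genes tested, grouped by pathway, with genes called higher in red, lower in blue and not called in grey, and dotted lines at 1.5-fold. Calls above 1.5-fold are limited to Xrcc5 and Prkdc on the left and Ercc6 and Ercc8 on the right, and 6 of the 9 Fanconi anaemia genes are red.

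Of 5 damage signalling genes, Atm and Trp53 rose and Atr, Chek1 and Chek2 were not called (40% called against 58.7% of all genes tested). With offsets for length and GC content, 4 of the 5 were called higher, Atr and Chek1 included. Atm (ENSMUSG00000034218.16; chromosome 9, 53439149 to 53536740, minus strand, GRCm38) encodes the kinase that is activated at double-strand breaks. It was read at 50.3, 49.4 and 48.9 CPM in the GFP libraries and at 69.4, 69.5 and 62.5 CPM in the ChREBP-beta libraries, so the groups did not overlap. The rise was 1.36-fold (log2 fold change 0.44, SE 0.0517, edgeR adjusted p = 9.07e-08). The bases just before its start are shown because Atm led this pathway. They are from RefSeq (GRCm38.p6), run 5′ to 3′ on the gene's strand, and leave out stretches that an annotated exon covers. Capitals, here and in the sequences that follow, mark a CCAAT box (read as ATTGG on the other strand) or the E-box CACGTG, a core found in the element that ChREBP and Mlx bind.
Atm, chr9:53536741-53536921, minus strand: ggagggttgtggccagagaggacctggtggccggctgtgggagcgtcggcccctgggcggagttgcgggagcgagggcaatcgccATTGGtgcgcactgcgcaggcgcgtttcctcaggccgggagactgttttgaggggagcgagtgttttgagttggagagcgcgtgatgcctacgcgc

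Trp53 (chromosome 11, 69580359 to 69591873, plus strand), which encodes the p53 transcription factor, was read at 113, 109 and 105 CPM in GFP cells and at 130.1, 139.7 and 136 CPM in ChREBP-beta cells. Every ChREBP-beta library lay above every GFP library, and the rise was 1.24-fold (edgeR adjusted p = 1.71e-07). Atr, the kinase of stalled replication forks, stood at 54.7, 55.2 and 53.3 CPM in GFP cells and at 66.1, 54.1 and 58.4 CPM in ChREBP-beta cells, and the groups overlapped (log2 fold change 0.13, edgeR adjusted p = 0.0645). Atr was called higher without ChREBP-beta replicate 2 (edgeR adjusted p = 0.00976), without a filter on low counts (0.0313) and with offsets for length and GC content, where its log2 fold change was 0.31 (edgeR adjusted p = 5.96e-05). Chek1, the kinase that ATR activates, had 24.6, 23.1 and 21.9 CPM in GFP cells and 25.8, 25.4 and 26.0 CPM in ChREBP-beta cells. Its groups did not overlap but it was not called (log2 fold change 0.15, edgeR adjusted p = 0.0806, or 0.0470 without GFP replicate 1 and 0.0216 with the offsets). Chek2, the kinase downstream of ATM, had 8.42, 9.07 and 9.36 CPM against 10.4, 8.66 and 8.90 CPM (edgeR adjusted p = 0.676).

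The wider damage signalling list moved in both directions. Of the 17 tested genes, 7 were higher, 2 lower and 8 not called (52.9% called). Topbp1, an activator of ATR, rose 1.20-fold, while Timeless, a protein of the replication fork, was 1.38-fold lower and Mdm4, an inhibitor of p53, 1.16-fold lower (edgeR adjusted p = 2.76e-06, 1.01e-06 and 1.30e-05). Genes that p53 is known to activate were also mixed: 7 of the 19 tested were higher, 3 lower and 9 not called (52.6% called against 58.7% of all genes tested), with a median log2 fold change of 0.07. Aen, an exonuclease gene, rose 1.65-fold, whereas Sesn1 and Btg2, which restrain growth, were 1.59-fold and 2.07-fold lower (edgeR adjusted p = 2.98e-09, 9.11e-11 and 2.02e-09).

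In end joining, transcripts of 2 subunits of the DNA-dependent protein kinase fell and those of the other subunit did not change detectably. Of the 6 members tested, 3 were lower, none higher and 3 not called (50% called against 58.7% of all genes tested). The holoenzyme consists of the Ku heterodimer, which threads onto broken ends, and the catalytic subunit that Ku recruits. Xrcc5, which encodes Ku80 (ENSMUSG00000026187.8; chromosome 1, 72307421 to 72394952, plus strand), was read at 92.1, 94.5 and 85.01 CPM in GFP cells and at 51.0, 47.4 and 48.0 CPM in ChREBP-beta cells. This was the largest change of any member, 1.86-fold lower (log2 fold change -0.89, SE 0.0492, edgeR adjusted p = 7.86e-14). Prkdc, which encodes the catalytic subunit (ENSMUSG00000022672.8; chromosome 16, 15637866 to 15842235, plus strand), had 70.1, 68.0 and 73.6 CPM in GFP cells and 45.4, 42.5 and 43.6 CPM in ChREBP-beta cells. It fell 1.61-fold (log2 fold change -0.69, SE 0.0510, edgeR adjusted p = 2.44e-11), and for both genes the lowest GFP library lay well above the highest ChREBP-beta library. Xrcc6, which encodes Ku70, the partner of Ku80, had 54.2, 48.6 and 49.3 CPM in GFP cells and 52.2, 50.9 and 50.5 CPM in ChREBP-beta cells. Its groups overlapped, and the log2 fold change was 0.01 (SE 0.0543, edgeR adjusted p = 0.839), an interval of -0.09 to 0.12 at ± 2 SE. Counts at Xrcc6 include reads split between genes in all 6 libraries, and 344 of its 4476 exon bases overlap Desi1 on the other strand.

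The RefSeq window before Xrcc5 is shown because it was the member that fell most, and it held 1 E-box and 1 CCAAT box.
Xrcc5, chr1:72307171-72307420, plus strand: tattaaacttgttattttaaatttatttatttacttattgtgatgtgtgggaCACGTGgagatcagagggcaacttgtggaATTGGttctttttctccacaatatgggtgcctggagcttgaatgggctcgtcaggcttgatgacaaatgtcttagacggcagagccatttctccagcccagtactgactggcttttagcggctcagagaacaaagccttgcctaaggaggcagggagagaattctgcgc

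The ratio of Xrcc5 to Xrcc6 transcripts within a library, which does not depend on library scaling, was 1.70, 1.95 and 1.72 with GFP and 0.976, 0.931 and 0.949 with ChREBP-beta. These are ratios of CPM and not of molecules, because transcript length was not divided out. Prkdc relative to Xrcc6 stood at 1.29, 1.40 and 1.49 with GFP and at 0.869, 0.834 and 0.862 with ChREBP-beta. In both cases the groups were apart (exact permutation of libraries, two-sided, p = 0.1 for each, the smallest that 3 against 3 libraries allow). The subunit ratios, here and below, were chosen after values were seen, so this test adds no support of its own. The ratio of Xrcc5 to Prkdc was 1.31, 1.39 and 1.16 with GFP and 1.12, 1.12 and 1.10 with ChREBP-beta. These groups were also apart (p = 0.1 by the same exact test), so Xrcc5 fell more than Prkdc. Their means, 1.29 and 1.11, lay closer than those of either ratio to Xrcc6.

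The ligase end of the pathway was not called. Lig4, the ligase of end joining, had 24.4, 23.7 and 23.7 CPM in GFP cells and 24.8, 29.0 and 26.1 CPM in ChREBP-beta cells (edgeR adjusted p = 0.0757, or 0.0262 without ChREBP-beta replicate 1 and 0.0279 with offsets for length and GC content). Xrcc4, its scaffold, had a log2 fold change of 0.16 (edgeR adjusted p = 0.192). Trp53bp1, which encodes the chromatin protein 53BP1 that steers breaks towards end joining, had 92.5, 87.4 and 86.0 CPM in GFP cells and 82.3, 81.8 and 77.6 CPM in ChREBP-beta cells. It was 1.10-fold lower (edgeR adjusted p = 0.00730), and that call was lost without GFP replicate 1 or ChREBP-beta replicate 3 (edgeR adjusted p = 0.0554 and 0.0539). It was also lost with offsets for length and GC content, where the log2 fold change was -0.09 against -0.14 without them (edgeR adjusted p = 0.0821). Split reads were present in all 6 of its libraries, and 2130 of its 14164 exon bases overlap Tubgcp4. Among 11 other end joining genes, none was higher, 1 was lower and 10 were not called (9.09% called against 58.7% of all genes tested). The lower gene was Shld2, of the shieldin complex, at 1.27-fold (edgeR adjusted p = 0.0108, or 0.0791 without ChREBP-beta replicate 1). The next smallest p-values were those of Shld1 and Poll (edgeR adjusted p = 0.131 and 0.134).

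**Figure D3:**
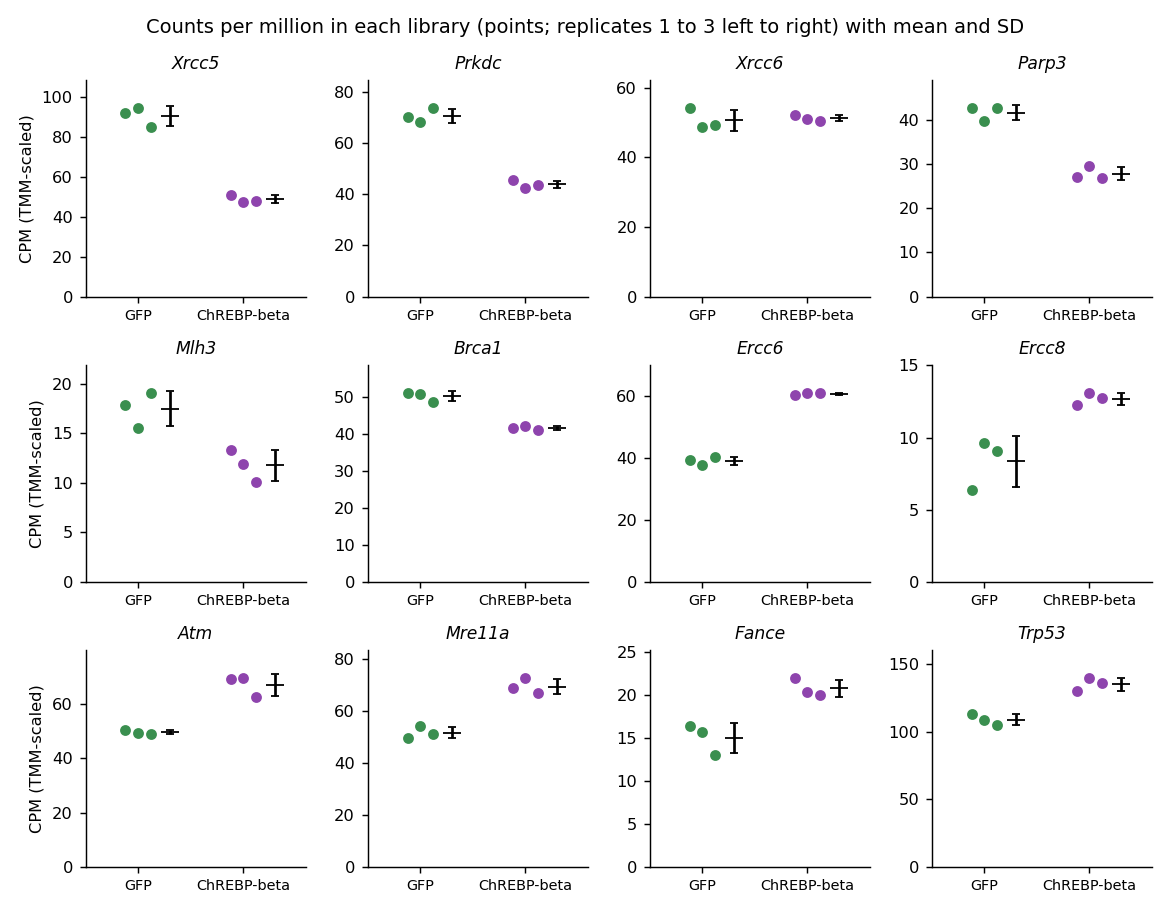
CPM (vertical axes, from 0) of 12 DNA repair genes in each of the 3 GFP and 3 ChREBP-beta libraries (points), with the mean and SD of each group (black). Xrcc5, Prkdc, Parp3, Mlh3 and Brca1 are lower in all 3 ChREBP-beta libraries, Xrcc6 overlaps, and Ercc6, Ercc8, Atm, Mre11a, Fance and Trp53 are higher in all 3.

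In homologous recombination, 4 of the 16 genes tested rose, 2 fell and 10 were not called (37.5% called against 58.7% of all genes tested). Those that rose include all 3 subunits of the complex that first binds broken ends. The complex of MRE11, RAD50 and NBS1 trims breaks and activates ATM. Mre11a, its nuclease (ENSMUSG00000031928.15; chromosome 9, 14784654 to 14837123, plus strand), was read at 49.7, 54.0 and 51.1 CPM in GFP cells and at 68.7, 72.5 and 66.6 CPM in ChREBP-beta cells, 1.34-fold higher (edgeR adjusted p = 9.95e-08). Nbn, which encodes NBS1, had 67.0, 62.2 and 55.1 CPM in GFP cells and 69.96, 73.3 and 71.1 CPM in ChREBP-beta cells, a rise of 1.16-fold (edgeR adjusted p = 0.00173). Rad50, the bridging subunit, had 78.4, 76.8 and 78.1 CPM in GFP cells and 90.5, 81.9 and 83.2 CPM in ChREBP-beta cells. Its rise of 1.10-fold (edgeR adjusted p = 0.0129) was not called without ChREBP-beta replicate 1 (adjusted p = 0.0811), with upper-quartile scaling (0.0576) or with library size alone (0.109). All 3 subunits thus lay higher in every ChREBP-beta library, by unequal amounts: Mre11a relative to Rad50 was 0.633, 0.703 and 0.655 with GFP and 0.758, 0.885 and 0.801 with ChREBP-beta (exact permutation of libraries, two-sided, p = 0.1). For Nbn relative to Rad50 the groups overlapped (0.855, 0.810 and 0.705 against 0.773, 0.895 and 0.855; p = 0.4 by the same exact test). Of the exon bases of Mre11a, 154 of 5927 overlap Ankrd49 on the other strand, a gene that also rose.

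Brca1, the tumour suppressor that promotes end resection, fell. It had 51.0, 50.9 and 48.6 CPM in GFP cells and 41.6, 42.2 and 41.0 CPM in ChREBP-beta cells, 1.21-fold lower with groups that did not overlap (edgeR adjusted p = 1.20e-04). Brca2, a tumour suppressor that mediates strand exchange, had 61.2, 62.2 and 60.9 CPM against 67.7, 57.5 and 62.3 CPM, with overlapping groups (log2 fold change 0.02, edgeR adjusted p = 0.719). Rad51ap1, a cofactor of strand exchange, rose 1.33-fold, from 24.3, 22.6 and 19.8 CPM in GFP cells to 31.3, 28.2 and 29.1 CPM in ChREBP-beta cells (edgeR adjusted p = 8.02e-05). Rad54b, a translocase, was 1.16-fold lower at an edgeR adjusted p of 0.0389. This call was lost in 5 of the 6 fits that left out a library: without GFP replicate 1, 2 or 3 (edgeR adjusted p = 0.0753, 0.0700 and 0.0893) and without ChREBP-beta replicate 2 or 3 (edgeR adjusted p = 0.130 and 0.0934). Rad54b shares 2068 of its 5782 exon bases with Fsbp on the same strand, and 5 libraries hold split reads there.

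A further 8 tested recombination genes were not called. Their log2 fold changes ran from -0.28 in Xrcc3 to 0.41 in Rad51b, and their edgeR adjusted p-values from 0.0983 (Xrcc3) through 0.143 (Rad51b), 0.197 (Palb2), 0.347 (Rad54l), 0.368 (Rad51d), 0.430 (Rad51c) and 0.440 (Rad52) to 0.905 (Xrcc2). In the wider recombination list, 7 of the 31 tested genes were higher, 8 lower and 16 not called (48.4% called against 58.7% of all genes tested). Wrn, the Werner syndrome helicase, fell 1.30-fold, while Rpa2, a subunit of the protein that coats single-stranded DNA, rose 1.27-fold and Mcm9, a helicase gene with split reads in 5 libraries, 1.31-fold (edgeR adjusted p = 1.30e-05, 5.39e-05 and 6.41e-04). Rad54l2 matches the symbol rule but encodes a helicase known as a partner of the androgen receptor. It had 45.7, 45.1 and 43.6 CPM in GFP cells and 50.3, 48.0 and 49.5 CPM in ChREBP-beta cells (edgeR adjusted p = 0.0290). That call was lost without GFP replicate 3 (edgeR adjusted p = 0.0892) and without ChREBP-beta replicate 1 or 3 (edgeR adjusted p = 0.0689 and 0.0636).

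**Figure D4:**
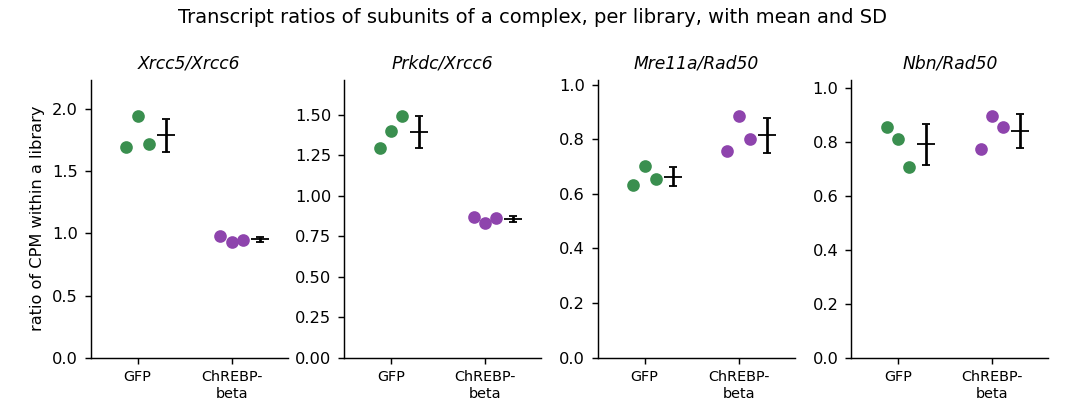
Ratio of the CPM of subunits of a complex within each library (vertical axes, from 0; points are libraries, black marks the mean and SD of 3). Xrcc5 and Prkdc relative to Xrcc6 are lower in all 3 ChREBP-beta libraries, Mre11a relative to Rad50 is higher in all 3, and Nbn relative to Rad50 overlaps.

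Fanconi anaemia genes rose more often than they fell. Of the 9 tested, 6 were higher, none lower and 3 not called, where 29.5% of all genes tested were called higher. With upper-quartile scaling, and likewise with library size alone, 4 were higher and 2, Fancl and Fanci, were lower. The products of Fanca, Fancb, Fancc, Fance, Fancf, Fancg, Fancl and Fancm belong to the core complex that attaches ubiquitin at blocked forks, and Fanci is one of its substrates. Fance had 16.4, 15.7 and 13.04 CPM in GFP cells and 22.0, 20.4 and 20.1 CPM in ChREBP-beta cells, the largest rise of this group at 1.38-fold (edgeR adjusted p = 1.25e-04). Fancb had 16.1, 17.0 and 15.9 CPM against 19.4, 21.6 and 20.7 CPM, 1.26-fold higher (edgeR adjusted p = 0.00145). Fancc had 12.9, 12.004 and 10.2 CPM against 13.3, 15.5 and 16.4 CPM, 1.29-fold higher with groups that lay close but did not overlap (edgeR adjusted p = 0.00566). None of these 3 calls was lost when a library was left out. Of the 8359 exon bases of Fancc, 1373 overlap Gm16133 and 185 a further gene, both on the other strand. Fancf, at 6.75, 6.25 and 7.86 CPM against 8.54, 8.98 and 9.83 CPM, rose 1.31-fold (edgeR adjusted p = 0.0131). Its call was lost without GFP replicate 2 or ChREBP-beta replicate 3 (edgeR adjusted p = 0.0598 and 0.0581), and its exon shares 253 of 1691 bases with Gas2, which fell.

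The other calls in this group were weaker. Fancm, the translocase that recruits the complex, was 1.14-fold higher (edgeR adjusted p = 0.0194), but not called without GFP replicate 3 (edgeR adjusted p = 0.105) or ChREBP-beta replicate 1 (edgeR adjusted p = 0.0536), nor by upper-quartile scaling or library size alone (0.0505 and 0.0710). Fanca was 1.19-fold higher with overlapping groups (edgeR adjusted p = 0.0430) and lost its call without GFP replicate 1 or 3 (edgeR adjusted p = 0.199 and 0.103) or ChREBP-beta replicate 2 or 3 (edgeR adjusted p = 0.115 and 0.0974). Of its 8761 exon bases, 920 overlap Zfp276 on the other strand, and 2 libraries hold split reads there. Fancl, the ubiquitin ligase subunit, and Fanci pointed the other way without being called (log2 fold change -0.22 and -0.17, edgeR adjusted p = 0.0631 and 0.0653). Without ChREBP-beta replicate 2, Fancl was called lower (edgeR adjusted p = 0.0177). Reads split between genes were present in all 6 libraries at both. Fancg, at 3.58 CPM in GFP cells, was not called (edgeR adjusted p = 0.724).

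Among 10 other genes of the Fanconi pathway, 3 were higher, none lower and 7 not called (30% called against 58.7% of all genes tested). Ube2t, the ubiquitin-conjugating enzyme that works with FANCL, rose 2.16-fold, from 5.36 ± 0.399 CPM (SD, n = 3) with GFP to 11.6 ± 0.290 CPM (SD, n = 3; edgeR adjusted p = 3.63e-08), a larger change than that of any member. Usp1, which removes the ubiquitin again, rose 1.11-fold and Faap24, a partner of FANCM, 1.34-fold (edgeR adjusted p = 4.32e-04 and 0.00686). Fancd2, the partner of Fanci, stood at 21.8 CPM in GFP cells and 22.7 CPM in ChREBP-beta cells (edgeR adjusted p = 0.609). It is outside the member list because the symbol rule admits 1 letter after Fanc.

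Of 7 nucleotide excision repair members, Ercc6 and Ercc8 rose and 5 were not called (28.6% called against 58.7% of all genes tested). Ercc6 and Ercc8 encode the Cockayne syndrome proteins CSB and CSA, which recognise RNA polymerase stalled at a lesion. Ercc6 (ENSMUSG00000054051.7; chromosome 14, 32513521 to 32580990, plus strand) was read at 39.3, 37.7 and 40.2 CPM in GFP cells and at 60.3, 61.0 and 61.0 CPM in ChREBP-beta cells. This was the largest rise of any member, 1.56-fold (log2 fold change 0.64, SE 0.0519, edgeR adjusted p = 1.39e-10). Ercc8 (ENSMUSG00000021694.18; chromosome 13, 108158731 to 108195364, plus strand) had 6.33, 9.63 and 9.08 CPM in GFP cells and 12.2, 13.1 and 12.7 CPM in ChREBP-beta cells, 1.52-fold higher (edgeR adjusted p = 2.71e-04). Ercc8 is the lower of the pair per kilobase of exon, at 1.09 CPM per kb with GFP against 3.04 for Ercc6, and both were separated between groups. The bases before both starts are shown because these genes rose most. The Ercc6 window held 1 E-box. For Ercc8 only the stretch between its first exon and that of the neighbouring Ndufaf2 is shown, with 2 CCAAT boxes that adjoin. A further E-box lies in the exon-covered part of the Ercc8 window, which is not printed.
Ercc6, chr14:32513271-32513520, plus strand: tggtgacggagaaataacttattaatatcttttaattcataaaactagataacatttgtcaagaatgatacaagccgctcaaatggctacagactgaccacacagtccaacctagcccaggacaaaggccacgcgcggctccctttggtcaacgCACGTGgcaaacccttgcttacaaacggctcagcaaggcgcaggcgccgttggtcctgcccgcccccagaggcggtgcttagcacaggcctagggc
Ercc8, chr13:108158624-108158730, plus strand: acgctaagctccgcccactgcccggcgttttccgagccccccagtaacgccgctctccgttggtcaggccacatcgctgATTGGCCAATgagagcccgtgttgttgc

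The 5 other excision genes were not called. Ercc3, a helicase of the transcription factor TFIIH, had 52.3, 51.3 and 54.3 CPM in GFP cells and 47.4, 47.1 and 52.0 CPM in ChREBP-beta cells (log2 fold change -0.11, edgeR adjusted p = 0.0926, or 0.0357 without ChREBP-beta replicate 3, 0.0300 with upper-quartile scaling and 0.0184 with library size alone). Ercc2, the other TFIIH helicase, had 10.8, 7.74 and 10.3 CPM against 8.21, 8.88 and 8.09 CPM (edgeR adjusted p = 0.204, or 0.0391 without GFP replicate 2). The nuclease genes Ercc1, Ercc4 and Ercc5, which make the incisions, had log2 fold changes of 0.05, 0.05 and -0.01 (edgeR adjusted p = 0.635, 0.693 and 0.880). Of 17 other genes of this pathway, 5 were higher, 2 lower and 10 not called (41.2% called against 58.7% of all genes tested). Uvssa and Xab2, which also act in transcription-coupled repair, were among those not called (edgeR adjusted p = 0.433 and 0.403), while Xpc, a lesion sensor of the whole genome, rose 1.34-fold (edgeR adjusted p = 9.95e-04). Gtf2h1, a TFIIH subunit, rose 1.47-fold from 40.8 ± 0.611 to 60.2 ± 3.26 CPM (SD, n = 3), Ddb1, a scaffold of damage recognition, rose 1.09-fold, and Cetn2, a centrin that assists lesion recognition, fell 1.28-fold (edgeR adjusted p = 3.32e-09, 3.13e-04 and 1.94e-05).

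In base excision and single-strand break repair, 1 of 8 members was called (12.5%), where 58.7% of all genes tested were called. That member was Parp3, which encodes a poly(ADP-ribose) polymerase family enzyme that responds to breaks (ENSMUSG00000023249.15; chromosome 9, 106470322 to 106476949, minus strand). It had 42.7, 39.7 and 42.7 CPM in GFP cells and 27.1, 29.5 and 26.9 CPM in ChREBP-beta cells, a fall of 0.58 on the log2 scale (SE 0.0629, edgeR adjusted p = 2.09e-08), just under 1.5-fold. Parp1, the main enzyme of the family, had 102, 99.7 and 98.4 CPM in GFP cells and 105, 104 and 100.7 CPM in ChREBP-beta cells (log2 fold change 0.05, edgeR adjusted p = 0.277). Lig3 and Xrcc1, a ligase and its scaffold, were also not called. Of the 7284 exon bases of Lig3, 1826 overlap Rffl on the other strand, and all 6 libraries hold split reads there. Lig3 had 91.6, 89.7 and 92.1 CPM against 91.5, 83.1 and 83.8 CPM (edgeR adjusted p = 0.103, or 0.0217 without ChREBP-beta replicate 1, 0.0243 with upper-quartile scaling and 0.0155 with library size alone), and Xrcc1 had 27.1, 26.1 and 26.6 CPM against 31.0, 27.4 and 28.3 CPM (edgeR adjusted p = 0.141). Apex1, the endonuclease that cuts at abasic sites, had 68.7, 60.2 and 67.0 CPM against 66.7, 71.2 and 67.6 CPM (edgeR adjusted p = 0.249) and was the most abundant member per kilobase of exon, at 45.9 CPM per kb with GFP. Of its 1422 exon bases, 877 overlap Pip4p1 on the other strand, and all 6 libraries hold split reads, so this rank is uncertain. The glycosylase genes Ogg1 and Ung, which remove oxidised guanine and uracil, and Parp2 had edgeR adjusted p-values of 0.290, 0.547 and 0.528. The Parp3 window is shown as that of the called member and held 1 CCAAT box and no E-box.
Parp3, chr9:106476950-106477199, minus strand: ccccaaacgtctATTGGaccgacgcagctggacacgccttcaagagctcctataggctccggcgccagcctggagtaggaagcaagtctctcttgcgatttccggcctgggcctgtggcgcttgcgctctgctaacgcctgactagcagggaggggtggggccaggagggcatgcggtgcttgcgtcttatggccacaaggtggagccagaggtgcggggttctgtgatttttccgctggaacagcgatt

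In the wider base excision list, 2 of 17 tested genes were higher, 2 lower and 13 not called (23.5% called against 58.7% of all genes tested). Fen1, the flap endonuclease, rose 1.19-fold (edgeR adjusted p = 6.00e-04). Nthl1, a glycosylase read at 3.27 CPM in GFP cells, was 1.59-fold lower (edgeR adjusted p = 0.0247), but not called without GFP replicate 1 or 3 or ChREBP-beta replicate 1 or 3 (edgeR adjusted p = 0.113, 0.0698, 0.0668 and 0.0910). Tdg, another glycosylase, was 1.06-fold higher (edgeR adjusted p = 0.0319) and was called in the fit without GFP replicate 1 but in none of the 5 other fits that left out a library (edgeR adjusted p between 0.0516 and 0.0953).

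Of 6 mismatch repair members tested, 4 were called (66.7% against 58.7% of all genes tested). MutS proteins recognise mismatches and MutL proteins then direct the cut. Of the 6, 1 was higher and 3 were lower. Only 2 were called lower without GFP replicate 1 or 3 or ChREBP-beta replicate 1 or 3. The same count was found with DESeq2 and with the replicate block. Msh6, a MutS homolog, had 88.5, 87.4 and 91.3 CPM in GFP cells against 98.0, 98.9 and 95.1 CPM, 1.09-fold higher (edgeR adjusted p = 0.00634, or 0.0758 with library size alone). Its groups did not overlap. Msh3, another MutS homolog, had a log2 fold change of 0.02 (edgeR adjusted p = 0.860). Mlh3, a MutL homolog, fell most, from 17.8, 15.5 and 19.1 CPM to 13.3, 11.9 and 10.1 CPM (1.49-fold, log2 fold change -0.57, SE 0.107, edgeR adjusted p = 6.41e-05). Msh5, a meiotic gene near the limit of detection at 1.64 CPM in GFP cells, was not called (edgeR adjusted p = 0.368). Among 5 other genes of the pathway, 3 were higher, 1 lower and 1 not called (80% called). Pcna, the sliding clamp, rose 1.20-fold and Pms2, a MutL homolog with split reads in 4 libraries, 1.23-fold (edgeR adjusted p = 4.11e-08 and 0.00433). Rfc1, the clamp loader, was 1.08-fold higher (edgeR adjusted p = 0.0203), but not without GFP replicate 2 or ChREBP-beta replicate 3 (edgeR adjusted p = 0.0679 and 0.109).

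Over all routes, including translesion synthesis and direct reversal, 119 repair genes outside the member list were tested, of which 29 were higher, 18 lower and 72 not called (39.5% called). With upper-quartile scaling 23 were higher and 20 lower, and with library size alone 22 and 21. Among polymerases that copy past damage, Rev3l fell 1.36-fold and Polh rose 1.27-fold (edgeR adjusted p = 4.19e-09 and 2.22e-06). Primpol, a primase gene with split reads in all 6 libraries, was 1.27-fold higher (edgeR adjusted p = 0.0238), but not without GFP replicate 1 or 2 or ChREBP-beta replicate 1 (edgeR adjusted p = 0.0640, 0.127 and 0.0959). Many repair genes are transcribed in step with the cell cycle. Of 29 tested S phase genes that are not repair genes, 15 were higher, 5 lower and 9 not called (69.0% called against 58.7% of all genes tested). With the repair genes included, 22 of 41 were higher and 6 lower (68.3% called), or 16 and 8 with library size alone. The leading S phase genes were Rrm2, a ribonucleotide reductase subunit, 2.78-fold higher, and Pcna, while Uhrf1, which maintains DNA methylation, was 1.249-fold lower (edgeR adjusted p = 2.95e-23 and 8.73e-08 for Rrm2 and Uhrf1). For G2 and M phase genes, 7 of 30 tested were higher, 4 lower and 19 not called (36.7% called against 58.7% of all genes tested). With library size alone 4 were higher and 7 lower, and with offsets for length and GC content 12 and 2. Top2a, Aurkb and Cks2 led this list at 1.16-fold, 1.20-fold and 1.22-fold higher (edgeR adjusted p = 4.83e-07, 3.57e-05 and 1.05e-04). The part of cell cycle phase in the repair gene changes was not tested.

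Several repair genes have a gene on the other strand that starts close to their own start, and changes of such pairs are described here. In GENCODE M21, 23 members have a protein-coding neighbour on the opposite strand whose start lies within 1000 bases, and both genes were tested for 21 of these pairs. The member was called in 11 pairs, and in 5 of those 11 the neighbour was called as well. Of all genes tested 58.7% were called, which is a share of single genes and not of pairs. Whether these pairs differ from pairs of unrelated genes was not tested. In 3 of those 5 the direction was the same: Ercc8 with Ndufaf2 (log2 fold change 0.38), Mre11a with Ankrd49 (0.24) and Prkdc with Mcm4 (-0.23), each neighbour changing less than the repair gene. In the other 2 it was opposite: Fancf rose and Gas2 fell (-0.67), and Parp3 fell while Rrp9 rose (0.55). The pairs are of unlike kinds. Ndufaf2 and Mcm4 start 108 and 466 bases before the repair gene, whereas Ankrd49, Gas2 and Rrp9 start inside it, Rrp9 almost 1000 bases in. Both pairs of opposite direction are thus of the overlapping kind, and the kinds were not compared. Atm rose while Npat, which starts 307 bases away, had a log2 fold change of -0.03 (edgeR adjusted p = 0.643), and Brca1 fell while Nbr1 had one of 0.00 (edgeR adjusted p = 0.932). Across the 21 pairs, Pearson's r between the fold changes was 0.09 and Spearman's rho 0.16, as a description across genes of the same 6 libraries.

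**Figure D5:**
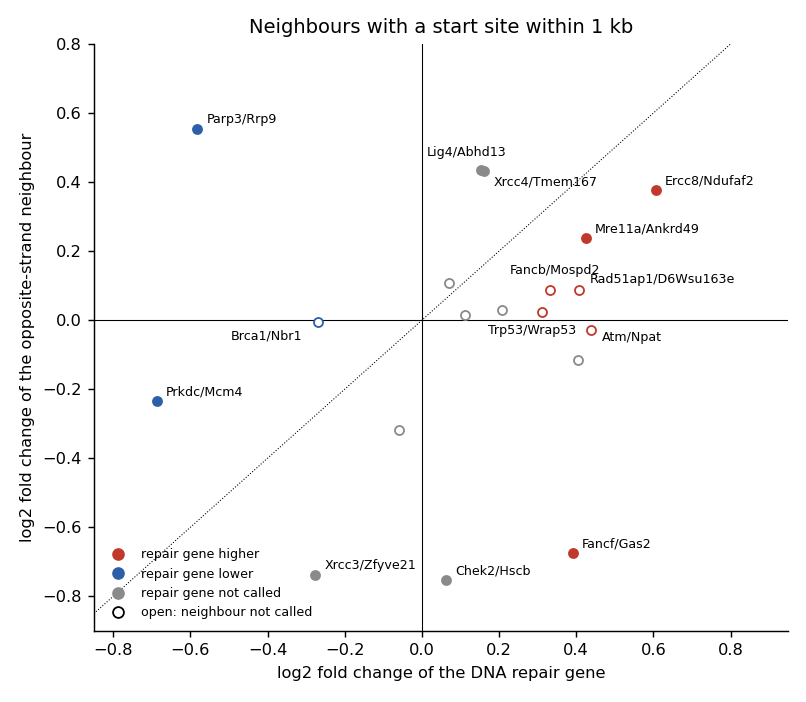
Log2 fold change (ChREBP-beta against GFP) of 19 DNA repair genes (horizontal axis) and of their opposite-strand neighbours with a start within 1000 bases (vertical axis), coloured by the repair gene's call, with open points where the neighbour was not called and a dotted line of equal change. Ercc8 with Ndufaf2, Mre11a with Ankrd49 and Prkdc with Mcm4 lie in the quadrants of shared direction, and Parp3 with Rrp9 and Fancf with Gas2 in the opposite ones.

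RefSeq promoter windows of the 250 bases before the start were matched by symbol for 47 of the 58 tested members (81.0%). Letters were searched on both strands. The E-box CACGTG, which reads the same on both strands, was found in 7 of the 47 windows (14.9%), among them those of Xrcc5, Ercc6 and Ercc8, and in 8.36% of the 9629 windows of tested genes. Those 3 genes had the largest changes among members with a matched window, each held 1 E-box, and their changes pointed in both directions. They were picked by their fold change, and Prkdc, which also changed by more than 1.5-fold, had no matched window. A link between the E-box and the changes was not tested. Among all tested genes, an E-box was found in 10.4% of the windows of genes called higher. The share was 7.39% for genes called lower and 7.52% for genes not called. The other members with an E-box were Apex1, Lig3, Parp1 and Parp2, none of which was called. The CCAAT box was found in 27 of the 47 windows (57.4%) against 37.1% of all windows. It was present in 12 of the 13 matched windows of members called higher (92.3%), Ercc6 being the exception, and in 11 of 29 windows of members not called (37.9%). Among all tested genes, 34.2% of the windows of genes called higher held it, 39.3% of those called lower and 37.8% of those not called. The box was chosen with the calls known, so the contrast among members is no support for a link with rising genes. Only 5 of the 9 members called lower had a window, of which 4 held the box (80.0%), so a comparison between members called higher and lower is void. E2F words, taken as TTTGGCGC, TTTCCCGC, TTTCGCGC or TTTGCCGC, occurred in 6 of the 47 windows (12.8%) against 3.50% of all windows. The 6 were those of Brca2, Chek2, Fancg, Msh3, Msh5 and Xrcc6, and none of these genes was called. The GC box, taken as GGGCGG, was in 28 of the 47 windows (59.6%) against 60.6% of all windows. The motifs were chosen after the calls were known. Matches of CACGTG and CCAAT cannot overlap, and an E2F word can share at most 1 base with either. A GC box can share bases with each of them. A match describes letters and not a bound site.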

How the data were processed

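RNA-seq of 3 GFP and 3 ChREBP-beta libraries was analysed from 1 table that the authors deposited, which holds estimated counts by gene symbol. The submitters' processing notes name fastp, Bowtie2 2.0.0.5, TopHat2 2.0.0 and the build GRCg6a, a chicken assembly, although the symbols are mouse symbols. Strand setting and counting tool: not given in the sources used here. Non-whole values (7.74%) were rounded, and symbols listed more than once (24) were summed. Genes passing edgeR's filterByExpr (minimum count 10, minimum total 15) were tested with edgeR 4.0.16 (quasi-likelihood, TMM, R 4.3.3), 3 against 3, with Benjamini-Hochberg adjustment over 12166 genes. The biological coefficient of variation was 3.44%. Replicates were compared and differed by more than sampling noise. Coordinates, exon lengths and overlaps come from GENCODE M21 (GRCm38), matched by symbol. Tests were checked on simulated counts. Alternatives were other scalings, filters, DESeq2 1.42.0, limma-voom (limma 3.58.1), a replicate block, each library left out, and offsets for length and GC content, the last chosen after seeing the data.

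The members and gene lists were chosen with earlier results of these data known. Values per library are given for up to 4 members per pathway with the smallest p-values and for Brca1, Brca2, Atm, Atr, Chek1, Chek2, Trp53, Prkdc and Parp1. A few genes are counted in the totals but not reported by name here, and the figures leave them out where they show single genes. Xrcc6, the subunit ratios and the neighbours were added after values were seen. In the wider lists, the 3 smallest p-values per list are named, and Fancd2, Uvssa, Xab2 and Xpc besides.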

Additional observations from a re-analysis of the deposited data

How the results depend on the processing

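Over 16 alternatives, 10 of the 16 higher calls and 6 of the 9 lower calls held in each, no call reversed, and 8 of the 33 members not called were called in at least 1. The count called higher ran from 11 to 19 and the count called lower from 6 to 13. At 1.5-fold or more, 2 were called higher and 2 lower. The members' median log2 fold change was 0.017 with upper-quartile scaling, 0.0030 with library size only and 0.10 with offsets for length and GC content. For all genes tested these medians were -0.037, -0.050 and 0.030. When a library was left out, 13 to 16 members were called higher and 6 to 9 lower, with a median log2 fold change between 0.02 and 0.07. The lowest count of lower calls, 6, was that without GFP replicate 1. The cause of these changes was not tested. Samples with the same replicate number did not deviate together from their group means (correlations -0.01, 0.01 and -0.10 over 9958 genes). With 3 libraries per group this cannot settle whether the numbers mark matched cultures, and the labels do not say. With the replicate block, 16 members were called higher and 7 lower, with a median log2 fold change of 0.05. Depth limits Rad51ap2, Msh4, Msh5, Fancg and Rad51b, which had 0, 6, 161, 381 and 390 counts over the 6 libraries. Counts of 28 of the 60 members may include reads of a gene that shares exon bases, and 16 members hold split reads.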
